A study of Mus musculus with 26 samples.

Results

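The clustered histone genes encode the histones that are made in bulk when DNA is replicated. They were chosen as the protein-coding genes of the RefSeq gene table (GRCm38.p6) whose symbol, or an older symbol listed as its synonym, has the form Hist1h to Hist4h, or whose symbol is H2ac, H2bc, H3c or H4c with a number. The rule found 67 of 21900 genes, 57 by the symbol itself and 10 by an older symbol. The 10 were H1f1 to H1f6, H2aw, H2bu2, H4f16 and H4bc24. H4bc24 is an H2B gene by its older symbol, Hist1h2br. By class the genes comprised 18 for H2A, 18 for H2B, 13 for H4, 12 for H3 and 6 for the linker histone H1.

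Core histones H2A, H2B, H3 and H4 form the protein spool of the nucleosome, and H1 binds the DNA between spools. Their replication-dependent genes are short, mostly lack introns, and give mRNAs that end in a stem-loop in place of a poly(A) tail. Transcription is concentrated at the histone locus body, a nuclear compartment built around the coactivator NPAT. Replacement histones, such as H2A.Z and H3.3, come from single genes outside the clusters and are made throughout the cell cycle. Pluripotent cells divide fast and spend much of their cycle in S phase, when the clustered genes are active.

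ATAC-seq, which marks open chromatin, was run on mouse pluripotent cells, with 50000 cells per library and 1 deposited peak list for each of 26 libraries. The first set held 6 lines with 3 libraries each. Naive ES cells (ES, passage 16) were grown in 2iL. Formative stem cells FS1 (passage 21) and FS2 (passage 29) were grown in A3XR. Epiblast stem cells, EpiSC, were grown in AF (EpiSC_AF, passage 22) or in AFX (EpiSC_AFX1, passage 14, and EpiSC_AFX2, passage 16). In the Rd2 set there were 2 ES libraries in 2iL (Rd2_ES, passage 33) and 2 EpiSC libraries in AFX (Rd2_AFX, passage 16). It also held 4 libraries of epiblast-like cells, EpiLC (Rd2_EpiLC), which were induced for 2 days in AF with KSR and sorted as the GFP-low fraction. No source used here says whether the libraries of 1 line came from separate cultures.

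Lists held 8044 to 31263 peaks in the first set and 471 to 26045 in the Rd2 set. The ES lists were the 3 shortest of the first set, with 8044, 9705 and 10961 peaks. A gene was counted as having a peak when 1 or more peaks reached to 1 kb or less from its start or end. First-set lists were compared at equal length, by taking the 8044 peaks with the highest −log10 p from each, and then as deposited. Zfp42, a naive marker, had a peak in 3 of 3 ES lists and in 1 of the 15 other first-set lists. Other naive markers did not follow the label. Tfcp2l1 had a peak in 0 of 3 ES lists and 14 of 15 others, Esrrb in 0 of 3 and 1 of 15, Klf4 in 2 of 3 and 13 of 15, and Tbx3 in 3 of 3 and 13 of 15. Fgf5, a primed marker, had a peak in 0 of 3 ES lists, 4 of 6 FS lists and 9 of 9 EpiSC lists. Neither Rd2_ES list had a peak at any of the 13 markers checked, including Pou5f1 and Sox2, so these lists were described and not compared.

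The genes lie on 4 chromosomes. On chromosome 13 they form stretches parted by more than 100 kb. The first stretch held 18 genes (chr13:21715711-21837530), the second 5 (chr13:22035122-22043658), the third 29 (chr13:23531044-23764412) and the fourth only the testis genes H2bc1 and H2ac1 (chr13:23933725-23934913). A further 10 genes lie on chromosome 3 (chr3:96219885-96270192), H2bu2 and H2aw on chromosome 11 (chr11:58948911-58955192), and H4f16 on chromosome 6 (chr6:136803993-136804431).

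Many H2A and H2B genes are transcribed away from each other out of 1 shared promoter. Among the 62 genes with a sequence in the RefSeq promoter table (GRCm38.p6), 10 such pairs were found, each of an H2A and an H2B gene, with starts 164 to 281 bp apart. The stretches between the starts of 4 pairs are shown because they are the pairs described gene by gene below, each with a peak in 3 of 3 ES libraries at equal length. They are written 5′ to 3′ on the + strand, with motifs on either strand in capitals. The motifs searched were the CCAAT box, the TATA box in the form TATAAA, and the octamer in the form ATTTGCAT. They lie at chr13:23574208-23574380 (H2bc7 and H2ac7), chr13:21753913-21754075 (H2ac15 and H2bc15), chr13:21787249-21787487 (H2ac22 and H2bc22) and chr13:22035644-22035820 (H2ac12 and H2bc12).
H2bc7-H2ac7: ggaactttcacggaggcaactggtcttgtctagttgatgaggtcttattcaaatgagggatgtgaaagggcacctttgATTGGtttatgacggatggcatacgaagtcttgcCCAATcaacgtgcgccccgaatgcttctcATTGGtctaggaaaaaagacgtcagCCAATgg
H2ac15-H2bc15: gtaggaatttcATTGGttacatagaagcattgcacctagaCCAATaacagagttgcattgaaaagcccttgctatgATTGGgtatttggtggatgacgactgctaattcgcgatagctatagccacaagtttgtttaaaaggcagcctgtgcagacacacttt
H2ac22-H2bc22: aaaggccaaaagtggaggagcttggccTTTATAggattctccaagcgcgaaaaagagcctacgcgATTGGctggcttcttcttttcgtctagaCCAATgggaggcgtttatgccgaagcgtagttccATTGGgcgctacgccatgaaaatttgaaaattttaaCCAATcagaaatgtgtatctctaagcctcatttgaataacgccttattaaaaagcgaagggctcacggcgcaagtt
H2ac12-H2bc12: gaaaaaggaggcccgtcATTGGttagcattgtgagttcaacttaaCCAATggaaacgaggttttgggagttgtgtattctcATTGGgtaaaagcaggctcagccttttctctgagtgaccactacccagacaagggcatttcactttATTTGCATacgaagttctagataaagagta
The CCAAT box, which binds the factor NF-Y, occurred 4, 3, 4 and 3 times in these stretches in the order shown. TATAAA, the TATA box, occurred 1 time in the third, and ATTTGCAT, the octamer bound by POU-domain factors such as OCT1 and OCT4, 1 time in the fourth.

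Over windows from 250 bases before to 50 after each start, CCAAT was found in 53 of 62 histone promoters (85.5%) and in 39.0% of all 17492 promoters of the table. It was present in every one of the promoters of H1, H2A, H2B and H3 genes, and in 3 of 12 promoters of H4 genes. TATAAA was found in 35 of 62 (56.5%) against 13.3% of all promoters. ATTTGCAT was found in 14 of 62 (22.6%) against 1.71%, and these were 7 of 18 H2A and 7 of 16 H2B promoters. None of these motifs contains another, and a match describes letters in the window only.

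In the lists as deposited, nearly all clustered histone genes had a peak somewhere in the first set. 66 of 67 genes (98.5%) had one in at least 1 of the 18 lists, against 65.1% of all protein-coding genes. The exception was H1f6, the testis linker histone H1t, which had no peak in any of the 26 lists. The testis pair H2bc1 and H2ac1 had a peak in 1 of 18 first-set lists, FS1 replicate 3, and in 2 Rd2_EpiLC lists. In each of the 18 first-set lists the share of clustered histone genes with a peak was above the share of all genes.

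At equal list length, ES cells had a peak at more clustered histone genes than any other first-set library. The 3 ES libraries had 31, 29 and 29 of 67 genes with a peak, 44.3% ± 1.72 (SD, n = 3). The FS1 libraries had 9, 9 and 9. The FS2 libraries had 23, 21 and 25. The formative lines thus did not overlap with each other, and FS2 lay between FS1 and ES. The EpiSC_AF libraries had 13, 18 and 7, the EpiSC_AFX1 libraries 13, 22 and 16, and the EpiSC_AFX2 libraries 8, 4 and 11. The 15 FS and EpiSC libraries together averaged 20.7% ± 9.82 (SD, n = 15). All protein-coding genes went the other way, with 20.6% to 21.3% in the ES libraries and 22.6% to 26.1% in the others. The histone share exceeded the all-gene share in 3 of 3 ES, 3 of 3 FS2, 0 of 3 FS1 and 2 of 9 EpiSC libraries.

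**Figure D1:**
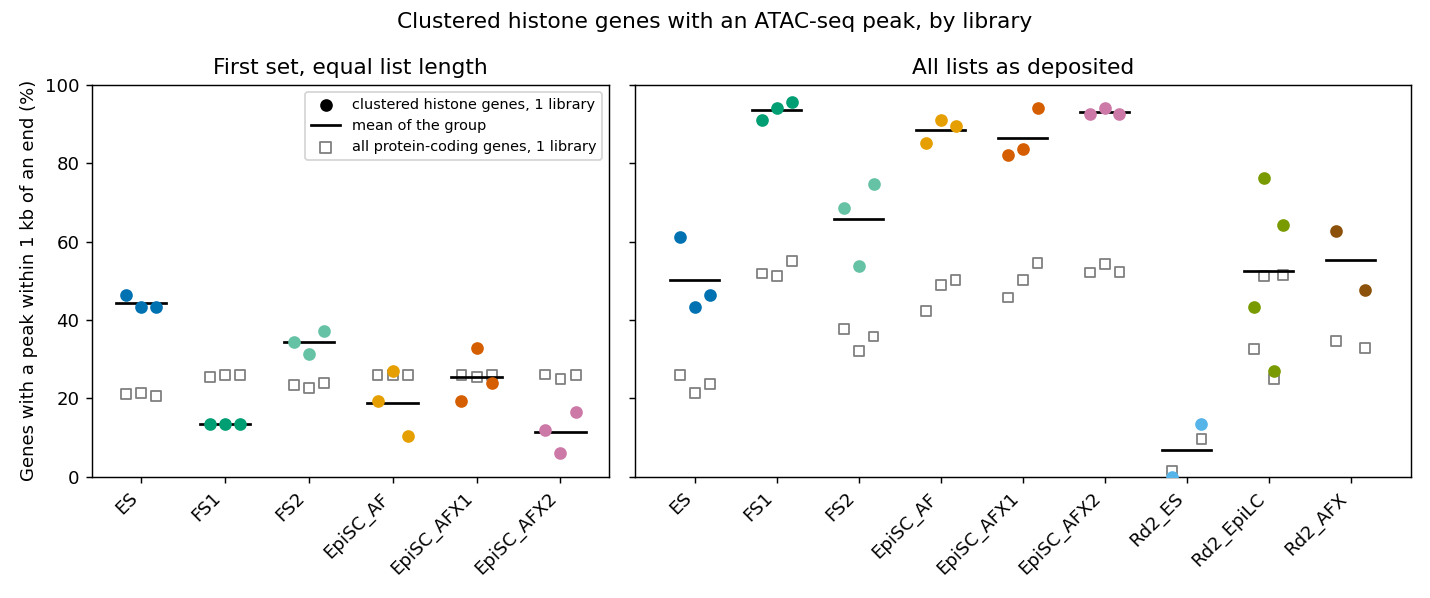
Share of the 67 clustered histone genes with a peak (filled points, 1 per library, bar at the group mean) and of all protein-coding genes (open squares), in percent. At equal length (left, first set) the ES points lie at 43.3% to 46.3%, above all other points, and as deposited (right, all 26 lists) they lie at 43.3% to 61.2%, while FS1 and EpiSC lie at 82.1% to 95.5%.

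This order was reversed in the lists as deposited. The ES libraries had 41, 29 and 31 genes with a peak, the FS1 libraries 61, 63 and 64, and the FS2 libraries 46, 36 and 50. The EpiSC libraries had 55 to 63. The difference between ES and the 15 other libraries was 23.6 percentage points at equal length and −35.2 as deposited. It was 13.3 with lists of 4000 peaks and 11.8 where a peak had to overlap a gene end. The share of all genes also rose with list length, from 21.3% to 26.1% in ES to 32.1% to 55.1% in the other first-set lists. So among the 8044 highest peaks of each list, ES had peaks at more histone genes. In FS1 and EpiSC peaks at histone genes were present but mostly lay outside the 8044 highest.

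The number of histone genes with a peak moved with list length across the first set. As a description over 18 libraries, which share lines, Spearman's rho with the full list length was −0.83 at equal length and 0.94 as deposited. Without the ES libraries (n = 15) it was −0.72 and 0.90. For all genes it was 0.67 and 0.99. Within FS, the line with shorter lists, FS2 (11796 to 14147 peaks), had more histone genes in the top 8044 than FS1 (23883 to 31263). List length and cell state cannot be told apart for ES, whose lists were all shorter than those of every other line. The depth behind the lists is unknown.

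**Figure D2:**
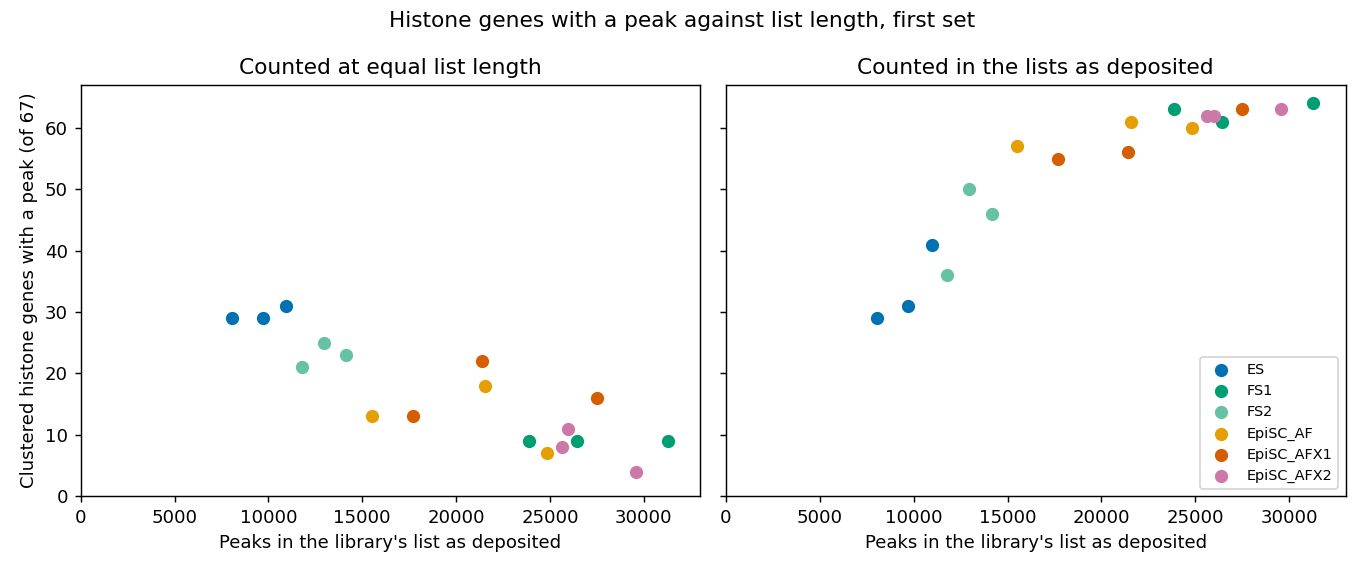
Clustered histone genes with a peak (y axis, of 67) against the number of peaks in the library's list as deposited (x axis), 1 point per first-set library, coloured by line. Counted at equal length (left) the points fall from 29 to 31 in the short ES lists to 4 to 11 in the EpiSC_AFX2 lists, and counted as deposited (right) they rise from 29 to 64.

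Other settings gave other orders of the lines. With −log10 q of at least 5 required, no clustered histone gene had a peak in any ES or FS2 library, against 2.21% and 4.78% of all genes on average. The FS1 libraries then had 15.4% ± 7.66 and the 9 EpiSC libraries 16.1% ± 6.87 of histone genes with a peak (SD, n = 3 and n = 9). These lay below the shares of all genes, 26.7% and 24.6%. Ranked by fold enrichment in place of −log10 p, the top 8044 peaks held 40.8% ± 8.49 of the histone genes in ES, 32.3% ± 5.65 in FS2, 5.97% ± 2.59 in FS1 and 9.29% ± 6.62 in EpiSC. The shares of all genes were 20.8%, 23.6%, 25.0% and 25.3% in the same order.

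By class, the difference between ES and the other lines at equal length was carried mostly by the genes of H2A and H2B, the paired histones at the faces of the nucleosome. ES libraries had 10.3 ± 1.53 of 18 H2A genes with a peak, against 3.33 ± 0.577 in FS1, 7.33 ± 2.08 in FS2 (SD, n = 3 each) and 4.78 ± 2.33 in EpiSC (n = 9). They had 9.67 ± 1.15 of 18 H2B genes, against 1.00 ± 1.00, 7.67 ± 0.577 and 2.11 ± 1.69. For H2A the lowest ES count, 9, was also the highest in FS2 and in EpiSC. For H2B the ES counts were 9 to 11, and no other library had more than 8. Paired H2A and H2B genes mostly shared 1 peak, so the counts of these classes are not independent. The H3 genes, for the histone whose tail carries most known marks, had 4.67 ± 1.15 of 12 in ES and 3.00 ± 1.00, 5.00 ± 1.73 and 3.67 ± 1.12 in the other lines. These overlapped. For H4 genes the ES libraries ranged from 0 to 6 of 13, FS from 1 to 3, and EpiSC from 0 to 3. For H1 the highest count in any library was 2 of 6.

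Tests on the presence of a peak at single genes made no calls at equal length. Two-sided Fisher's exact tests on libraries with and without a peak, adjusted by Benjamini-Hochberg over all genes tested, called 0 histone genes and 0 of all genes (0%) in each of the 4 comparisons at equal length. With few ES libraries the smallest p for ES against FS was 0.0119 and the lowest adjusted p of any gene 0.431, so these counts do not show that no gene differed. At an unadjusted p below 0.05 they gave 6 of 51 histone genes for ES against FS, where the background over all genes was 5.64%. They gave 12 of 54 for ES against EpiSC (background 12.4%), 0 of 49 for FS against EpiSC (4.43%) and 9 of 56 for ES against all other lines (8.49%). All of these histone genes had a peak more often in ES. The 3 comparisons with ES share its libraries, and neighbouring histone genes can share a peak.

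Counted by direction alone, the share of libraries with a peak was higher in ES than in FS for 37 of 51 tested histone genes (72.5%), against 31.1% of all genes tested. Against EpiSC it was higher in ES for 37 of 54 (68.5%), against 26.1% of all genes. Neighbouring histone genes can share a peak, so the genes in these counts are not separate observations. Between FS and EpiSC, 27 of 49 (55.1%) were higher in FS, against 35.0% of all genes. By another measure, the mean share of histone genes with a peak, FS was 5.31 percentage points above EpiSC. Without the FS2 libraries, a setting chosen after the data were seen, that difference was −5.14. The count by direction was not repeated without FS2.

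The genes that separated ES from other lines were divergent H2A and H2B pairs on chromosome 13. Presence in every ES library and in no FS library held for 2 of 51 histone genes, H2bc7 and H2ac7 (background 0.816%). Presence in every ES library and in no EpiSC library held for 2 of 54, H2ac22 and H2bc22 (background 0.708%). No histone gene was separated in the opposite direction, where the background was 1.94% and 2.33%. None was separated between FS and EpiSC (0.00989% with a peak in FS, 0.0198% in EpiSC) or between ES and all other lines (0.411% with a peak in ES, 0.794% in the other lines). Single libraries decided these counts. Without FS2 replicate 2 the first count was 6, and without EpiSC_AF replicate 2 or EpiSC_AFX1 replicate 2 the second was 6 or 4. Against all other lines it was 2 without FS2 replicate 2, 2 without EpiSC_AF replicate 2 and 1 without ES replicate 2. Leaving out a library can only raise such a count, for genes at large as for histone genes. The backgrounds above are for all libraries and do not apply to these counts.

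H2bc7 and H2ac7 shared 1 peak in every list that had one. Its percentile rank, from near 0 for the lowest to 100 for the highest peak of the list, was 43.7, 45.1 and 12.2 in the ES libraries at equal length. It was absent from all 6 FS libraries and from 8 of 9 EpiSC libraries, with a rank of 20.7 in EpiSC_AF replicate 2. Fisher's exact test for ES against FS gave p = 0.0119, the smallest this design allows, and adjusted p = 0.431. As deposited, both genes had a peak in all 18 lists.

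The peak of H2ac22 and H2bc22 ranked 42.4, 65.3 and 16.9 in the ES libraries. Among the other 15 it was present only in FS2 replicate 2, at a rank of 5.1. For ES against EpiSC, Fisher's exact test gave p = 0.00455, again the smallest possible, and adjusted p = 0.150. As deposited the genes had a peak in 17 of 18 lists. The pair H2ac15 and H2bc15 ranked 70.8, 18.2 and 47.8 in ES, 14.4 in FS2 replicate 2 and 8.2 in EpiSC_AFX1 replicate 2, with no peak in the 13 others. The pair H2ac12 and H2bc12 was less restricted. It ranked 22.7, 76.3 and 25.8 in ES, had a peak in 3 of 3 FS2, 1 of 3 FS1 and 2 of 3 EpiSC_AFX1 libraries, and none in EpiSC_AF or EpiSC_AFX2. FS2 thus carried peaks at these pairs in 0 of 3 (H2bc7 and H2ac7), 1 of 3 (H2ac22 and H2bc22), 1 of 3 (H2ac15 and H2bc15) and 3 of 3 libraries (H2ac12 and H2bc12).

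Across all 10 divergent pairs, 190 of 191 occurrences of a peak at a pair in a deposited list were 1 peak within 1 kb of both genes (99.5%). The members of a pair are therefore not separate observations. Counted as distinct peaks, ES libraries had 17 ± 1 histone peaks at equal length (SD, n = 3), and the 15 other libraries 9.07 ± 4.01.

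limma on the rank gave more calls than Fisher's exact test on presence. Both the value and the test differ between them, so the gain cannot be put down to either. limma on the percentile rank, with 0 where a gene had no peak, called H2bc7 and H2ac7 for ES against FS, higher in ES by 33.7 points (SE 7.15, adjusted p = 0.0469), where 1.11% of all genes were called higher in ES and 1.69% lower. For ES against EpiSC it called 16 of 54 histone genes, all higher in ES, where 2.98% of all genes were called in that direction and 7.08% in the other. For ES against all other lines it called 15 of 56, all higher in ES (3.18% and 3.85% of all genes). For FS against EpiSC limma called 0 of 49, where 0.0198% of all genes were called higher in FS and 0.129% higher in EpiSC. At an unadjusted p below 0.05 limma gave 5 of 49 histone genes (10.2%), below the 13.9% of all genes.

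For ES against all other lines, H2ac22 and H2bc22 had the lowest limma p, with a rank higher by 41.2 points (SE 5.47, adjusted p = 8.17e-05). Besides the 4 pairs above, the 16 genes against EpiSC were H2bc13, H2ac13 and H3c10, H4c6, H2ac6 and H2bc4, and on chromosome 3 H3c13 and H2bc18. Except H4c6, each of the 16 had the same mean rank in ES as a neighbour among them. The called genes are therefore not separate observations, and their number overstates the number of sites. Libraries of the same line counted as separate in limma and in Fisher's exact test. Their p-values therefore do not measure the spread between lines. A rank with many zeros does not meet limma's assumption of an even spread, and the lists as deposited gave the opposite direction. There Fisher's exact test called 7 of 64 histone genes for ES against EpiSC, all without a peak in ES (11.3% of all genes were called). They were H3c11, H2ac4, H3c2, H2ac21, H2ac20, H2bc21 and H4c14. For ES against all other lines it called H2ac21, H2ac20 and H2bc21, 3 of 66 (3.86% of all genes), each with a peak in 0 of 3 ES lists and 15 of 15 others (adjusted p = 0.0317). These shares of called histone genes are close to the background. For ES against FS and FS against EpiSC it called 0 of 66 as deposited, and 0% of all genes. At an unadjusted p below 0.05 the lists as deposited gave 9 of 66 histone genes for ES against FS (12.5% of all genes) and 22 of 64 for ES against EpiSC (32.4%). They gave 3 of 66 for FS against EpiSC (4.34%) and 15 of 66 for ES against all other lines (24.1%).

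Separation in the lists as deposited was near the background. A peak in every library of the other side and in none of ES held for 3 of 66 histone genes against FS (background 5.6%), 7 of 64 against EpiSC (11.2%) and 3 of 66 against all other lines (3.81%). H2ac21, H2ac20 and H2bc21 were separated in all 3 comparisons. No histone gene was separated with a peak in ES, where the background was 0.105%, 0.0794% and 0.0561%. None was separated between FS and EpiSC (0.0141% with a peak in FS, 0.0282% in EpiSC).

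**Figure D3:**
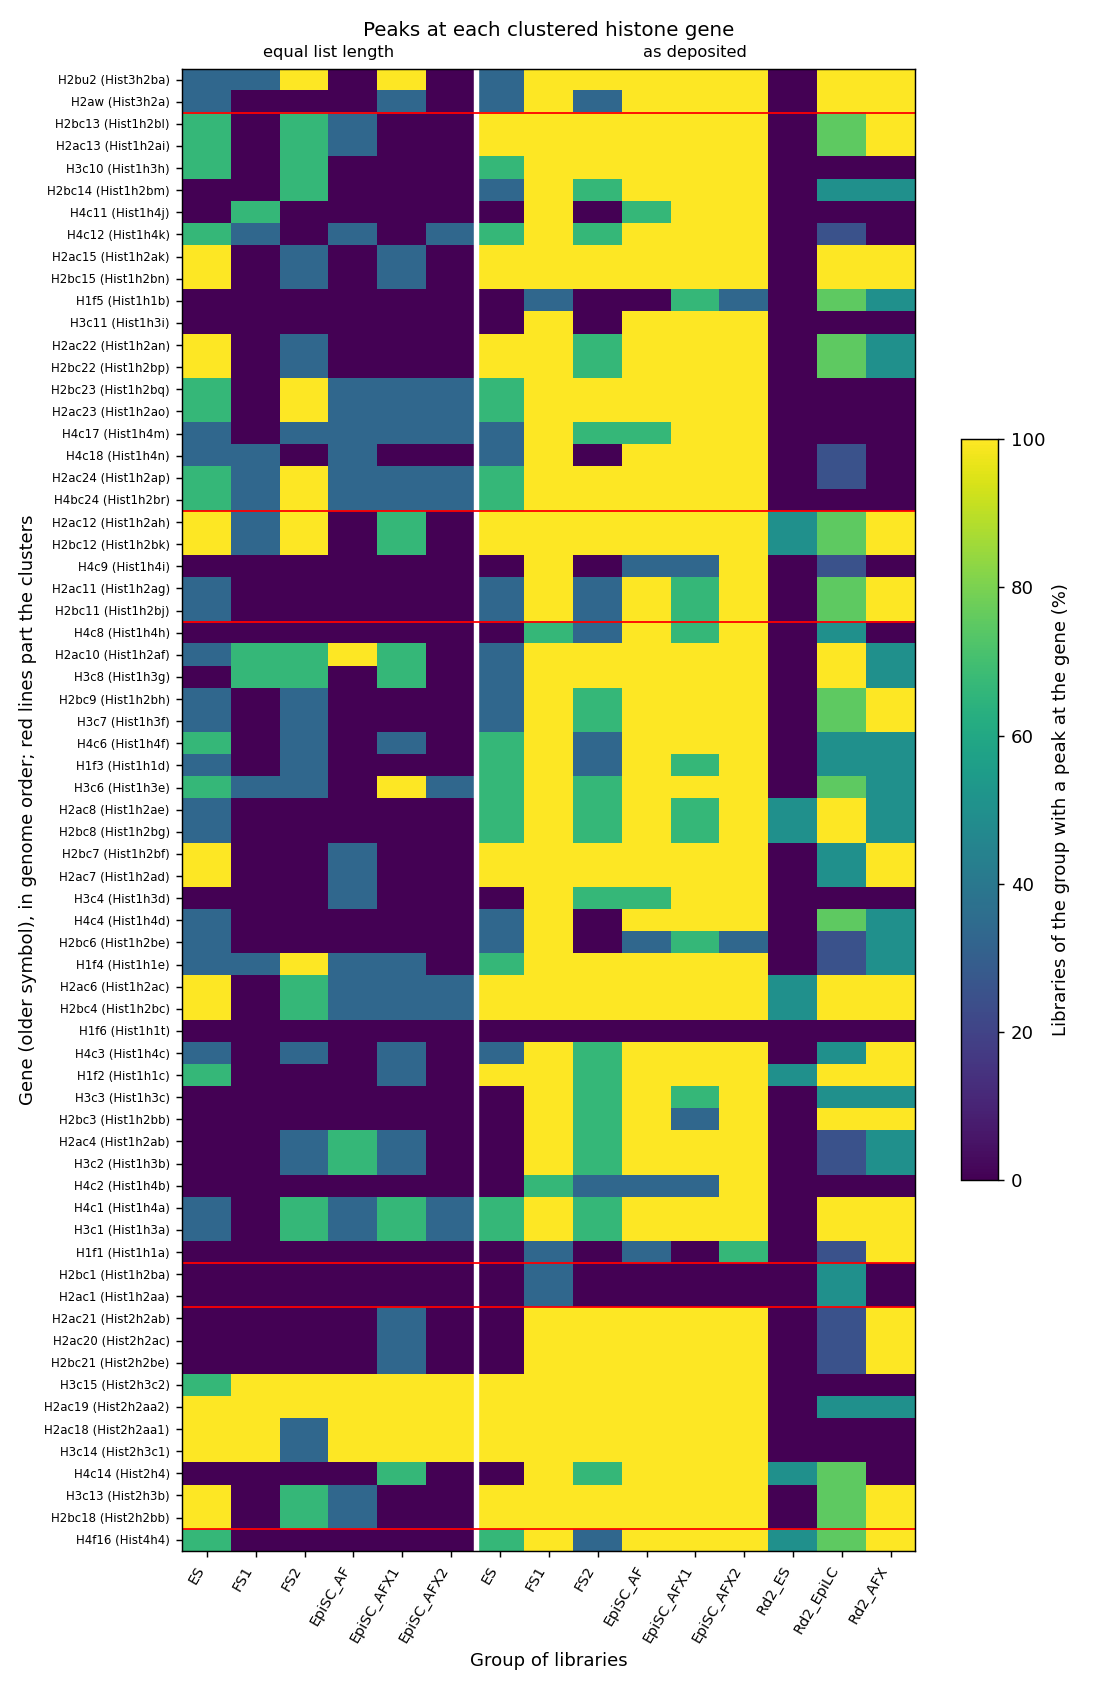
Percent of the libraries of each group (columns) with a peak at each clustered histone gene (rows, genome order, older symbol in brackets), from 0 (dark) to 100 (yellow), at equal list length on the left and as deposited on the right. At equal length the ES column is filled in all 3 libraries at 15 genes, and as deposited FS1 and EpiSC are filled nearly throughout.

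By position, the difference lay mostly on chromosome 13, where the ranges of ES and FS2 overlapped. Of the 18 genes of its first stretch, ES libraries had 5 to 14 with a peak at equal length, FS1 1 to 3, FS2 8 to 9 and EpiSC 0 to 6. Of the 29 genes of the third stretch they had 8 to 13, against 0 to 4, 7 to 8 and 0 to 9. The 49 protein-coding genes that lie between the stretches and are not histone genes had a peak in 1 of 49 cases in each ES library, and in 1 to 3 in the others. Most of the 49 had no peak in any list, so this set could hardly show a difference between lines. Chromosome 3 differed less, with 5 to 6 of 10 genes in ES, 4 in each FS1 library, 2 to 6 in FS2 and 4 to 7 in EpiSC.

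The number and summed width of histone peaks were read for the third stretch of chromosome 13, which holds the most genes. At equal length the third stretch of chromosome 13 held 6.67 ± 1.15 peaks summing to 3445 ± 1478 bp in ES, a mean width of 504 bp. FS1 held 1.33 ± 1.53 peaks (498 ± 639.9 bp, mean width 341 bp), and EpiSC 2.78 ± 1.79 (1423 ± 869 bp, mean width 565 bp). FS2 lay nearer to ES, with 5 ± 1 peaks (1767 ± 393 bp, mean width 355 bp). As deposited the same stretch held 8.67 ± 3.06 peaks in ES, 20.7 ± 1.53 in FS1, 11.3 ± 4.04 in FS2 and 20.8 ± 2.28 in EpiSC (SD, n = 3, n = 9 for EpiSC).

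On chromosome 3 the genes of highest rank had a peak in nearly every first-set library. H2ac19, an H2A gene, had one in 18 of 18 libraries at equal length, the only clustered histone gene to do so, against 5.87% of all genes. Its rank was 76.8, 72.2 and 75.5 in ES, 83.6 to 92.5 in FS1, and 51.9 to 95.0 in EpiSC. In FS2 it was 64.1, 22.7 and 78.9. Its neighbour H3c15, an H3 gene, shared that peak in 17 libraries, all but ES replicate 1. H2ac18 and H3c14 had a peak in 16 of 18, and lacked one in FS2 replicates 1 and 2. In contrast H2ac21, H2ac20 and H2bc21 at the other end of the cluster had a peak at equal length only in EpiSC_AFX1, in 1 of 3 libraries.

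H2ac18, H2ac19, H3c14 and H3c15 belong to 10 genes whose promoters are nearly the same as that of another clustered histone gene, sharing an exact run of 219 to 300 bases. The next longest run, between H4c11 and H4c12, was 72 bases. The 10 were H2ac18 and H2ac19, H3c14 and H3c15, H2ac23 and H2ac24, H2bc23 and H4bc24, and H4c17 and H4c18. The 250 bases before the start are shown for a pair from each chromosome, since reads from such copies cannot be placed by sequence alone. Capitals mark the longest run that both hold within the stretch shown, 231 bases for the H3 genes and 249 for the H4 genes. They are written 5′ to 3′ on the strand of the gene, at chr3:96239128-96239377 (H3c15, − strand), chr3:96246435-96246684 (H3c14, +), chr13:21811496-21811745 (H4c17, +) and chr13:21832198-21832447 (H4c18, −).
H3c15: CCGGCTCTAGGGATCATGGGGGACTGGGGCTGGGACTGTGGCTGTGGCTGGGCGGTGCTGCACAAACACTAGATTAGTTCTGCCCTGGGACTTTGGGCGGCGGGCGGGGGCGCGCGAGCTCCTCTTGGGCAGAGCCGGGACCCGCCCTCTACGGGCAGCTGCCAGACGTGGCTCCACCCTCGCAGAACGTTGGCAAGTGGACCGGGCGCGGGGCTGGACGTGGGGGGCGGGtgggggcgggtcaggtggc
H3c14: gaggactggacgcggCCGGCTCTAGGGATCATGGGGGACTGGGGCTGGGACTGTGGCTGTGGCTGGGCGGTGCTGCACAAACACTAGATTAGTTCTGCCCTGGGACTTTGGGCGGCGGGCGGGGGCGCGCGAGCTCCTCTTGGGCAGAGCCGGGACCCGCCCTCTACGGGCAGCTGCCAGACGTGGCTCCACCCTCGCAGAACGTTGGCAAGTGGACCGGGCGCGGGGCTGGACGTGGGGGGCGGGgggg
H4c17: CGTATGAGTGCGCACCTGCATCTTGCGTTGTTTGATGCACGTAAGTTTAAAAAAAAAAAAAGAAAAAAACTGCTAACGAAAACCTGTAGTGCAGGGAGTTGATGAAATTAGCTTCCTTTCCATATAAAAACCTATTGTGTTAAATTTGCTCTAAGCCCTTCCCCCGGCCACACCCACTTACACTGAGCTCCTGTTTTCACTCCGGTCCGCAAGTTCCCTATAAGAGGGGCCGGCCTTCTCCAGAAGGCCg
H4c18: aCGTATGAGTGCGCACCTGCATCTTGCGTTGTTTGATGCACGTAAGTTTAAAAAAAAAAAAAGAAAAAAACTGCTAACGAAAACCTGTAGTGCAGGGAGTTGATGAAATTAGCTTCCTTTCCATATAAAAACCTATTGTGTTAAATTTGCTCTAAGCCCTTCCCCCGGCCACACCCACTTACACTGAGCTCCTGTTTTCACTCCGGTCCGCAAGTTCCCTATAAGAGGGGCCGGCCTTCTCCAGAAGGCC
How reads that match several places were treated is not given in the sources used here, so the values of these 10 genes are uncertain as to which copy they belong to.

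As a group, the 10 copies differed more between the sets of lists than the 57 other genes did. In the first set as deposited, each copy had a peak in 13 to 18 of 18 lists (median 17). In the Rd2 set, each had one in 0 to 3 of 8 lists, and 7 of the 10 had none. The 57 other genes had a peak in a median of 15 of 18 first-set lists and 4 of 8 Rd2 lists. Of these 57 genes, 6 also had no peak in any Rd2 list. They ranged from H1f6, with none in the first set either, to H3c10, with one in 17 of 18 first-set lists. In the longest Rd2 lists, Rd2_EpiLC replicates 2 and 4, peaks were present at 3 and 0 of 10 copies and at 48 and 43 of 57 other genes. The sets also differ in their narrowest peak, 150 bp in the first set and 110 bp in the Rd2 set. Whether mapping differed between the sets was not tested.

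**Figure D4:**
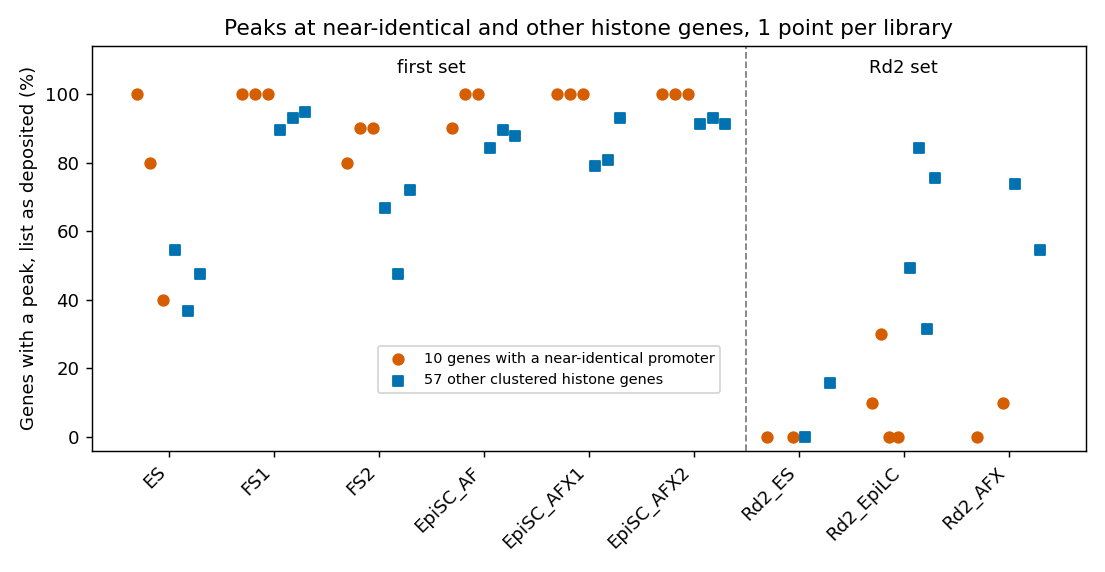
Percent of the 10 genes with a near-identical promoter (orange circles) and of the 57 other clustered histone genes (blue squares) with a peak in each library's list as deposited, by group. In the first set the circles lie at 40% to 100%, and in the Rd2 set at 0% to 30%.

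At equal length the copies did not carry the difference between ES and the other lines. They had 7 ± 2.65 of 10 genes with a peak in ES and 5.00 ± 1.73 to 7 ± 1 in the other lines (SD, n = 3 each). The 57 other genes had 22.7 ± 2.08 in ES (39.8%), 16 ± 1.73 in FS2 (28.1%), 11.3 ± 3.21 in EpiSC_AFX1 (19.9%), 6.67 ± 4.04 in EpiSC_AF (11.7%), 4 ± 1.73 in FS1 (7.02%) and 2.00 ± 2.00 in EpiSC_AFX2 (3.51%).

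Among the linker histones, H1f4 (H1.4) and H1f2 (H1.2) ranked highest. H1f4 had ranks of 57, 73.2 and 78.5 in the 3 FS2 libraries, 37.8 in FS1 replicate 2 and at most 7.0 in any other library that had a peak (EpiSC_AF replicate 2, EpiSC_AFX1 replicate 3 and ES replicate 3). It was 1 of the genes with the largest difference in presence between FS (4 of 6) and EpiSC (2 of 9). H1f2 ranked 54.6 and 58.6 in ES replicates 2 and 3, 49.0 in EpiSC_AFX1 replicate 1, and had no peak in the rest. H1f1 (H1.1) and H1f5 (H1.5) had no peak in any first-set list at equal length. As deposited, each had one in 4 of 18 first-set lists.

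Among the isolated genes, H2bu2 on chromosome 11 had a peak at equal length in 3 of 3 FS2, 3 of 3 EpiSC_AFX1, 1 of 3 FS1 and 1 of 3 ES libraries, and in no EpiSC_AF or EpiSC_AFX2 library. Its neighbour H2aw had one in 1 ES and 1 EpiSC_AFX1 library. H4f16 on chromosome 6 had one in 2 of 3 ES libraries and in 0 of the 15 others (Fisher's exact test p = 0.0196, adjusted p = 0.333). H4c1, the H4 gene of highest mean rank, had a peak in 1 of 3 ES, 2 of 6 FS and 4 of 9 EpiSC libraries. H3c8 had none in ES and one in 4 of 6 FS and 2 of 9 EpiSC libraries.

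Within the first-set lists, histone peaks mostly ranked lower and were wider than other peaks near gene ends. At equal length the median rank of histone peaks was below that of all peaks within 1 kb of a gene end in 18 of 18 first-set libraries, by 18.4 points ± 11.3 on average (SD, n = 18). Their median width was above in 16 of 18, with a mean ratio of 1.59 ± 0.681. As deposited, the gap was −16.6 points ± 6.36 and the ratio 1.35 ± 0.169. In the Rd2 lists the rank gap was −29.98 to 1.23 points, and above 0 in Rd2_EpiLC replicate 3 (1.06) and Rd2_AFX replicate 1 (1.23). There the histone peaks were narrower than the others in 6 of the 7 lists that had any, with ratios of 0.705 to 0.994, and wider in Rd2_EpiLC replicate 3 (a ratio of 1.06).

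**Figure D5:**
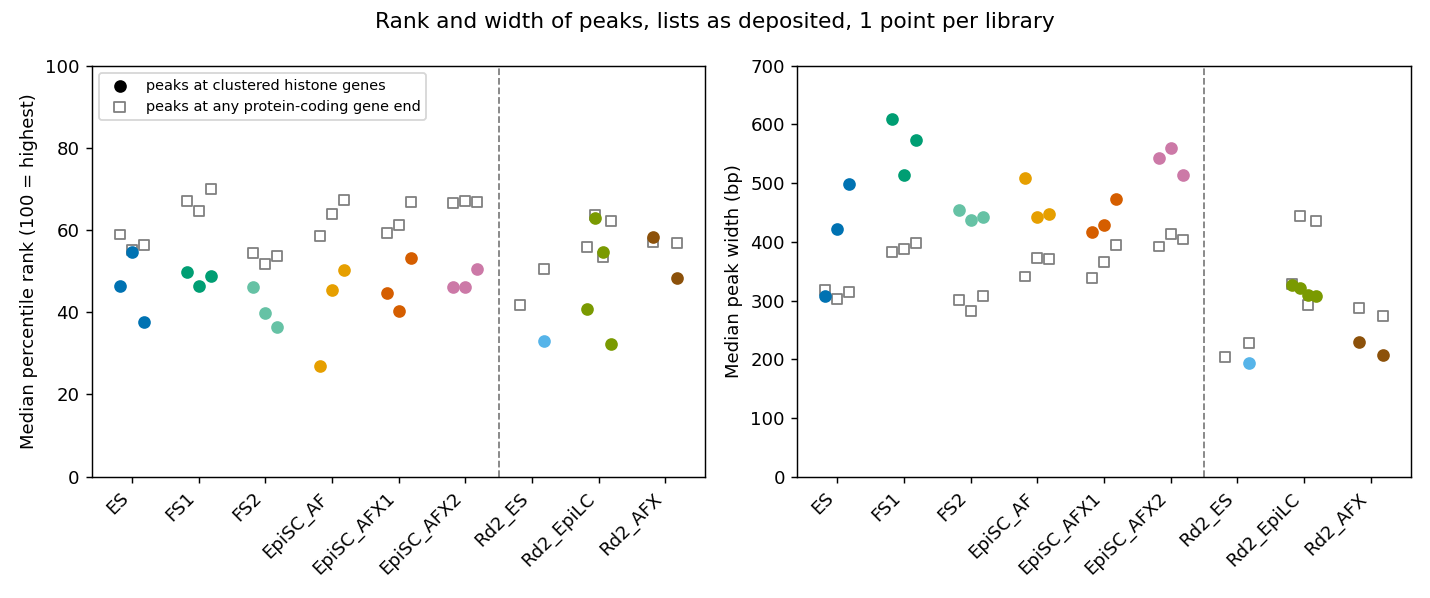
Median percentile rank (left) and median width in bp (right) of peaks at clustered histone genes (filled points) and of all peaks within 1 kb of a protein-coding gene end (open squares), 1 point per library, lists as deposited. In the first set the filled points lie below the squares in rank in 18 of 18 libraries and above them in width in 17 of 18.

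In the Rd2 set as deposited, Rd2_ES had a peak at 0 and 9 of 67 genes. The Rd2_EpiLC libraries had 29, 51, 18 and 43, and the Rd2_AFX libraries 42 and 32. The means of the latter groups, 52.6% and 55.2%, differed by −2.61 points, less than the spread between libraries, and the sign changed without Rd2_EpiLC replicate 1 (0.498), Rd2_EpiLC replicate 3 (5.97) or Rd2_AFX replicate 1 (4.85). At the length of their shortest list, 7469 peaks, a setting chosen after the data were seen, the Rd2_EpiLC libraries had 23, 22, 18 and 13 genes and the Rd2_AFX libraries 36 and 21. The share of all genes was then 22.2% to 25.4%, above the histone share in Rd2_EpiLC replicate 4 (19.4%) and below it in the 5 others (26.9% to 53.7%). The groups still overlapped. H2ac6, H2bc4 and H1f2 had a peak in 7 of 8 Rd2 lists, the most of any clustered histone gene.

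Genes for the factors of the histone locus body and of histone mRNA processing were compared as a list of 14. At equal length, 10.0 ± 1.00 had a peak in ES (SD, n = 3) and 8.47 ± 1.77 in the 15 other libraries. Casp8ap2 (FLASH), Slbp, which binds the stem-loop, Hinfp, an activator of H4 genes, and Nfya, a subunit of NF-Y, had one in 18 of 18 libraries. Npat had a peak in 14 of 18, and in 0 of 3 FS2 libraries. Pou2f1, which encodes OCT1, had one in 16. The U7 snRNP genes Lsm10 and Lsm11 had one in 13 and 9, and of the cleavage genes Cpsf2 in 11, Cstf2 in 9, Sympk in 8 and Cpsf3 in 1. Eri1, a nuclease of histone mRNA, had none at equal length. Zfp473, a zinc finger protein of the U7 complex, had one in 3 of 3 ES libraries, 1 of 3 FS1 libraries and none of the 12 others.

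Replacement and other unclustered histones had a peak less often in ES at equal length, as did all genes. Of 11 genes, 3.67 ± 0.577 had a peak in ES (27.3% to 36.4%, SD, n = 3) and 6.67 ± 1.29 in the 15 other libraries (36.4% to 81.8%). All protein-coding genes had 20.6% to 21.3% and 22.6% to 26.1%. H2az1 and H2az2, the genes of H2A.Z, had a peak in 18 of 18 libraries, with mean ranks of 88.7 and 76.0. H2ax had one in 15, H2aj in 16 and H3f3a, an H3.3 gene, in 13. H1f0, H1f10 and Cenpa, the centromeric H3, had none in ES and one in 11, 10 and 8 of the 15 others. Macroh2a1 and Macroh2a2 had one in 1 library each. H3f3b, the other H3.3 gene, had no peak in any of the 26 lists.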

How the data were processed

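ATAC-seq peak lists of 26 mouse libraries were used as deposited, 1 list per library, in the broadPeak layout. The submitters' processing notes name Trim Galore, Bowtie, Picard, MACS2 and the build mm10, without their roles here, and versions are not given in the sources used here. Each deposited peak carries the authors' fold enrichment (a ratio), −log10 p, −log10 q and a score. The score in the deposited lists was not used, and the other values served only to rank or filter peaks within their own list. mm10 is the same assembly as GRCm38, whose RefSeq tables gave gene ends, symbols and promoter sequences. No read counts were used, so depth was unknown and no counting interval was given.

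Libraries were grouped by the source label. Lists of the first set were cut to the 8044 peaks of highest −log10 p, the length of the shortest. A percentile rank is a peak's place in its list, with 100 the highest, and a gene takes its highest-ranked peak. Fisher's exact test, two-sided with Benjamini-Hochberg adjustment at a threshold of 0.05, was run over every gene with a peak in at least 1 compared library (Python 3.11.15, scipy 1.17.1, statsmodels 0.14.6). limma 3.58.1 on ranks was an alternative. Both were tested on simulated data. p-values measure the spread between libraries, which may be technical. Neither test had a term for line, so they do not measure the spread between lines. Alternatives were the lists as deposited, other rankings, lengths, windows and a −log10 q minimum, and leaving out each library.

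The genes and lists were chosen with earlier results of these data known. Genes named were the 2 of highest mean rank per class, those without any peak, the up to 6 with the largest difference in each comparison, genes outside chromosome 13, testis histones, and listed factors and replacement histones without a peak in every first-set list, with Npat and Slbp in any case. H1f1, H1f5, H2ac6, H2bc4, H2bc13, H2ac13, H3c10, H4c6, H3c2, H3c11, H2ac4 and H2ac20, the other listed factors and histones, Hfe, the copies, and H4c11 and H4c12 were named after their values were seen, as was the rule for near-identical promoters (a shared run of at least 100 bases). 5 genes had no promoter sequence.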

Additional observations from a re-analysis of the deposited data

Results flagged for a closer look

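Groups of 4 to 10 libraries were checked for a library far from the rest, 35 checks in all with 3 hits, where chance gives about 1 in 20. In EpiSC_AFX2 replicate 1 at equal length, histone peaks were 3.88 times as wide as the median of peaks at gene ends, where the nearest other EpiSC library had a ratio of 1.90 and the lowest 1.00. It stood apart both among the 9 EpiSC and among the 6 EpiSC_AFX libraries, and its value rests on 4 peaks. In EpiSC_AF replicate 1 as deposited, histone peaks ranked 31.7 points lower than peaks at gene ends (−31.7), where the nearest EpiSC library had −20.8.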

How the results depend on the processing

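The differences below are in the percentage of histone genes with a peak. As deposited they were −29.4 for ES against FS (20.4 at equal length), −39.1 for ES against EpiSC (25.7), −9.78 for FS against EpiSC (5.31) and −35.2 for ES against all other lines (23.6). In distinct peaks they were −15.8, −24.6, −8.72 and −21.1 as deposited, against 7, 8.56, 1.56 and 7.93. With −log10 q of at least 5 they were −7.71, −16.1, −8.37 and −12.7. With 4000 peaks per list ES exceeded EpiSC by 12.9 and all other lines by 13.3, and FS against EpiSC was −0.995. Where a peak had to overlap a gene end, ES exceeded FS by 10.4, EpiSC by 12.8 and all other lines by 11.8, and 1 gene separated ES from FS. Without FS2, chosen after the data were seen, ES exceeded FS by 30.8 and FS against EpiSC was −5.14. The cause was not tested. Without the 10 copies, or with table symbols only, both chosen after the data were seen, the differences kept their sign.

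Histone genes separated numbered 3 (ES against FS), 7 (ES against EpiSC) and 3 (ES against all other lines) as deposited, all without a peak in ES. They numbered 3, 6 and 2 when ranked by fold enrichment. Backgrounds are given above for the lists as deposited. None is given for the ranking by fold enrichment or for peaks that overlap a gene end, so those counts are not set against one. Fisher's exact test called 7 for ES against EpiSC and 3 for ES against all other lines as deposited. limma on ranks called 2 for ES against FS, 16 for ES against EpiSC and 15 for ES against all other lines.

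Leaving out each library in turn gave 18.3 to 23.1 for ES against FS, 24.1 to 27.5 for ES against EpiSC, 2.62 to 7.40 for FS against EpiSC, 22.5 to 24.8 for ES against all other lines, and −10.4 to 5.97 for Rd2_EpiLC against Rd2_AFX (−2.61 with all). Histone genes separated ranged from 2 to 6, 2 to 6, 0 to 0 and 0 to 2, and Fisher's exact test called 0 in every case. No share of all genes is given for these settings, so the ranges are not set against a background. The rank gap stayed at −19.4 to −17.3 points and the width ratio at 1.46 to 1.63.

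With the replicate number as a block, limma called 0, 16, 0 and 15 histone genes, in the order ES against FS, ES against EpiSC, FS against EpiSC and ES against all other lines. The calls were all higher in ES, where 0.826%, 2.83% and 3.12% of all genes were called higher in ES against FS, EpiSC and all other lines. Correlations between libraries of the same number were near 0 (mean r 0.00236 over 45 pairs, none over 0.1), so the numbers were not taken as pairing. The mean over 90 pairs of different number was −0.00118. For 11 of 18 libraries, however, the mean correlation with libraries of other lines was highest for their own number. Depth was unknown, so a missing peak does not show that a site was closed.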

Other observations

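Other gene families set beside the clustered histone genes at equal list length did not show the same order of lines. Of 84 cytosolic ribosomal protein genes, ES libraries had 18.7 ± 1.15 with a peak, FS1 25.7 ± 1.15, FS2 19.0 ± 6.08, EpiSC_AF 20.7 ± 2.08, EpiSC_AFX1 23.0 ± 4.36 and EpiSC_AFX2 19.7 ± 1.53 (SD, n = 3 each). Of 57 clustered protocadherin genes, ES had 0.333 ± 0.577, FS1 0.667 ± 0.577, EpiSC_AF 0.667 ± 1.15, EpiSC_AFX1 1.67 ± 0.577 and EpiSC_AFX2 1.00 ± 1.00. The FS2 libraries ranged from 1 to 21. Hfe, an iron-handling gene and the single gene inside a histone stretch that is not a histone gene, had a peak in 0 of 18 first-set lists at equal length and in 3 of 18 as deposited.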
